A study of Homo sapiens with 48 samples.

Results

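RKO and DLD-1 are established human colon cancer cell lines, and their untreated state was compared across all genes. The comparison rests on 6 of the 48 RNA sequencing libraries of the study: 3 of RKO and 3 of DLD-1, all kept for 24 h with DMSO, the solvent control of the drug arm, and all labelled as biological replicates. The study gave the proteasome inhibitor carfilzomib or DMSO to 8 lines (2 each from colon, lung and pancreatic cancer and from multiple myeloma) at a dose set per line. No genotype or engineered allele is labelled for either colon line, each line stands for 1 tumour, and the labels give standard flat culture as the growth condition. The replicates measure the spread within a line, so the comparison is between these 2 lines and not between classes of tumour.

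Colon epithelium is built by transcription factors such as CDX2 and HNF4A, held together by E-cadherin and tight junction proteins, and renewed under Wnt signalling, which acts through beta-catenin. Loss of the epithelial state is driven in many carcinomas by ZEB1, a repressor that binds E-box motifs in the promoters of epithelial genes and opposes the regulators GRHL2, OVOL and ESRP. Both lines are known for defective mismatch repair, DLD-1 through mutation of MSH6. As further background, RKO carries mutant BRAF with intact APC, and DLD-1 carries mutant APC. No DNA data were used here.

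Depth differed between the lines. Total counts per library, in M (mega), were 12.65, 13.91 and 22.56 M in RKO and 48.86, 30.59 and 31.41 M in DLD-1. Levels are given in CPM, each count divided by the TMM-scaled library total in M. They are compared for a gene between lines and never between genes, since they are not divided by length. Replicates correlated at 0.9913 to 0.9926 in RKO and 0.9947 to 0.9966 in DLD-1 (Pearson r of log2 CPM across genes), against 0.796 to 0.802 between lines, and every replicate pair differed by more than counting noise. A gene was called when the edgeR quasi-likelihood test gave a Benjamini-Hochberg adjusted p under 0.05 and the estimate was at least 2-fold. All log2 differences are RKO minus DLD-1, so that a positive value is a higher level in RKO, and all adjusted p are from this test.

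Of 16770 gene rows tested, 3543 (21.1%) were called higher in RKO and 3984 (23.8%) higher in DLD-1. Together 44.9% of the tested rows were called, and 78.6% passed the adjusted p without regard to size, so a single call is common. By the fitted estimates, large differences were more often on the DLD-1 side. At least 16-fold higher were 1292 rows in DLD-1 and 694 in RKO, and at least 256-fold higher 570 and 177. For rows without a count in one line, the counts give only a lower bound, and the fitted size can lie well above it. KLK1, without a count in RKO, was fitted at -10.50 log2, while its counts give at least 113-fold. The RKO libraries were shallower, and the part of depth in these size classes was not tested. The median log2 difference over all rows was -0.08. The gene lists below count only genes with a single row in the table, of which 16064 were tested, 20.3% were called higher in RKO and 23.9% higher in DLD-1 (44.2% in either direction). Among protein-coding genes the shares were 17.8% and 24.3% of 13071, and among long intergenic and antisense RNAs 23.8% and 34.2% of 1054, or 42% and 58% of each class in either direction.

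**Figure D1:**
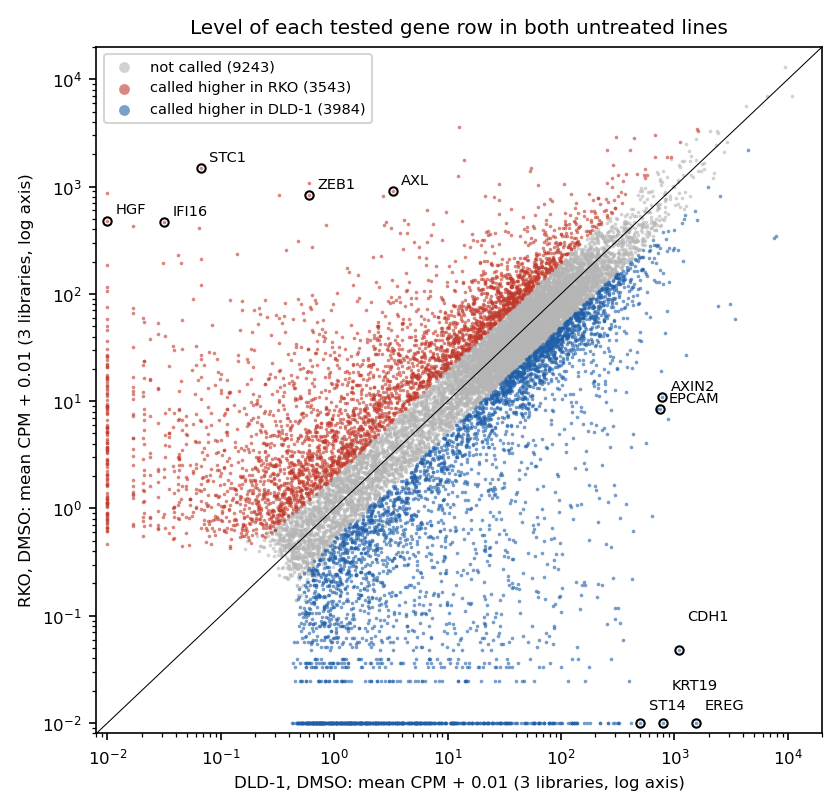
Mean CPM plus 0.01 of each of the 16770 tested gene rows in untreated DLD-1 (x axis) and RKO (y axis), both on log axes, with 3 libraries per line. Red points were called higher in RKO (3543), blue points higher in DLD-1 (3984), grey points were not called, and the row of points at the lower edge holds genes without a count in RKO.

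The epithelial programme differed across nearly all of its members. Of 42 junction and polarity genes, 37 had a single row and all 37 were tested. Of these, 33 (89.2%) were called higher in DLD-1 and 1 in RKO, with a median log2 difference of -4.17, against -0.08 over all rows. CDH1, which encodes E-cadherin (chr16:68737225-68835548, GRCh38), had 0, 1 and 1 counts in the RKO libraries, or 0, 0.0705 and 0.0440 CPM, against 1131, 1065 and 1077 CPM in DLD-1. The ratio was 27139.8 with a counting interval of 7513 to 224102 (exact Poisson, 95%). EPCAM, an adhesion protein of epithelial cells, was at 6.76, 8.96 and 9.34 CPM in RKO and 753, 736 and 767 CPM in DLD-1 (-6.47, SE 0.09, adjusted p = 8.2e-13). EPCAM was thus low in RKO but well above zero in each library, unlike CDH1.

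ST14, the membrane protease matriptase, had no count in RKO and 542, 507 and 448 CPM in DLD-1, at least 8273-fold apart. Desmosomes followed the same direction: JUP, or plakoglobin, averaged 0.0734 CPM in RKO and 254 CPM in DLD-1, and DSP, desmoplakin, 65.7 and 559 CPM. Of the claudins, CLDN4 averaged 0.426 CPM in RKO and 276 CPM in DLD-1, while CLDN12 was not called (55.04 and 60.6 CPM). MAPK13, a p38 kinase, was the 1 member called higher in RKO (171 against 74.9 CPM).

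All 10 tested epithelial regulators lay on the DLD-1 side and 9 were called, with a median of -9.13. EHF, an ETS factor of epithelial cells, had no count in RKO and was at 419.6, 406 and 411 CPM in DLD-1. GRHL2, a grainyhead factor that binds enhancers of junction genes, had 1 count in the 3 RKO libraries together and stood at 177, 169 and 183 CPM in DLD-1. ESRP1, which directs epithelial splicing, was at 0, 0.0705 and 0.352 CPM in RKO and 62.5, 60.8 and 63.3 CPM in DLD-1, while ESRP2 was not called (58.3 and 116 CPM, -0.99). The host transcript of the miR-200c cluster, MIR200CHG, was at 0, 0.0705 and 0.220 CPM in RKO and 6.75, 6.13 and 5.92 CPM in DLD-1. The miR-200 family is known to target ZEB1. MIR200CHG was chosen after its values were seen.

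ZEB1 stood opposite. ZEB1 (chr10:31318495-31529814) was at 867, 827 and 803 CPM in RKO and at 0.585, 0.396 and 0.777 CPM in DLD-1 (10.46, SE 0.11, adjusted p = 2.6e-13). The other repressors of this class did not follow it: ZEB2 averaged 0.104 CPM in RKO, SNAI2 and TWIST1 had no count there, and SNAI1 was not called (5.01 and 2.82 CPM, 0.83). Promoters of 3 junction and polarity genes, each called higher in DLD-1, are printed with the ZEB1-type E-box in capitals, searched as CAGGTG on both strands (CACCTG on the other). They were picked after the values were seen. RAB25 (chr1:156060910-156061159, plus strand) encodes a GTPase of epithelial recycling, AP1M2 (chr19:10587316-10587562, minus strand) a sorting adaptor of epithelial cells, and MYO5B (chr18:50195148-50195397, minus strand) a motor of apical recycling.
RAB25: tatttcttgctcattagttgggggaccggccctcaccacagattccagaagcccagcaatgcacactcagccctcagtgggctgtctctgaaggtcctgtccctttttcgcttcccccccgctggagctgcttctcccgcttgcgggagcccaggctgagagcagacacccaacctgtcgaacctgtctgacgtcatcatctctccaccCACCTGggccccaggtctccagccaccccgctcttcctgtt
AP1M2: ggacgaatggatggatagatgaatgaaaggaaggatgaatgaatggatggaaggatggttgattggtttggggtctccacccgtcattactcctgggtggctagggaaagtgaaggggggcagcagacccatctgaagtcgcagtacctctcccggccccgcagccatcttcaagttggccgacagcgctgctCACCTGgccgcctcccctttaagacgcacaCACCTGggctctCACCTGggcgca
MYO5B: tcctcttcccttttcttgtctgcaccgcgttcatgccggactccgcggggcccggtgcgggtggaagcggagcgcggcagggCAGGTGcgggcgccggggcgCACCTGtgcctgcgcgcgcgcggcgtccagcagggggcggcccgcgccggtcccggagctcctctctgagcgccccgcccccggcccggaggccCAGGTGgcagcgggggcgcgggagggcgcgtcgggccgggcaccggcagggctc

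These windows, from the RefSeq promoter table (GRCh38.p14) and printed 5′ to 3′ on the gene's strand, lie upstream of the RefSeq start and overlap no exon. They held 1, 3 and 3 matches, and the window of 102 bases of CDS1, also called higher in DLD-1, held 0. The window of 160 bases of TMC4, a junction list gene with several rows in the table and so no test, also held 0. The motif occurs in 16.5% of the 16446 windows of tested genes, and only 20 of the 37 junction genes had a window, so no share is given for the list. RAB25 had no count in RKO and averaged 77.6 CPM in DLD-1. AP1M2 averaged 0.184 against 153 CPM, and MYO5B 24.2 against 279.8 CPM. A match is a description of the letters only, and binding was not measured.

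Keratins, the intermediate filaments of epithelium, fell on the same side. KRT8 was at 57.1, 58.05 and 61.5 CPM in RKO and 3622, 3410.5 and 3165 CPM in DLD-1, and its partner KRT18 at 76.5, 73.002 and 90.3 and 3247, 3278 and 2818 CPM. KRT8 and KRT18 thus remained well detected in RKO at -5.85 and -5.28 log2, whereas KRT19 had no count in RKO and was at 864, 825 and 679.7 CPM in DLD-1, at least 13093-fold apart. Of 14 tested keratin and other filament genes, 11 were called higher in DLD-1, with a median of -5.56 (-3.93 with genes lacking a count taken at their bound). The 3 called higher in RKO were VIM and NES, filaments of mesenchymal and neural progenitor cells, and KRT10. They were 21.4% of the 14, near the 20.3% of all tested genes with a single row, of which 23.9% were higher in DLD-1.

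**Figure D2:**
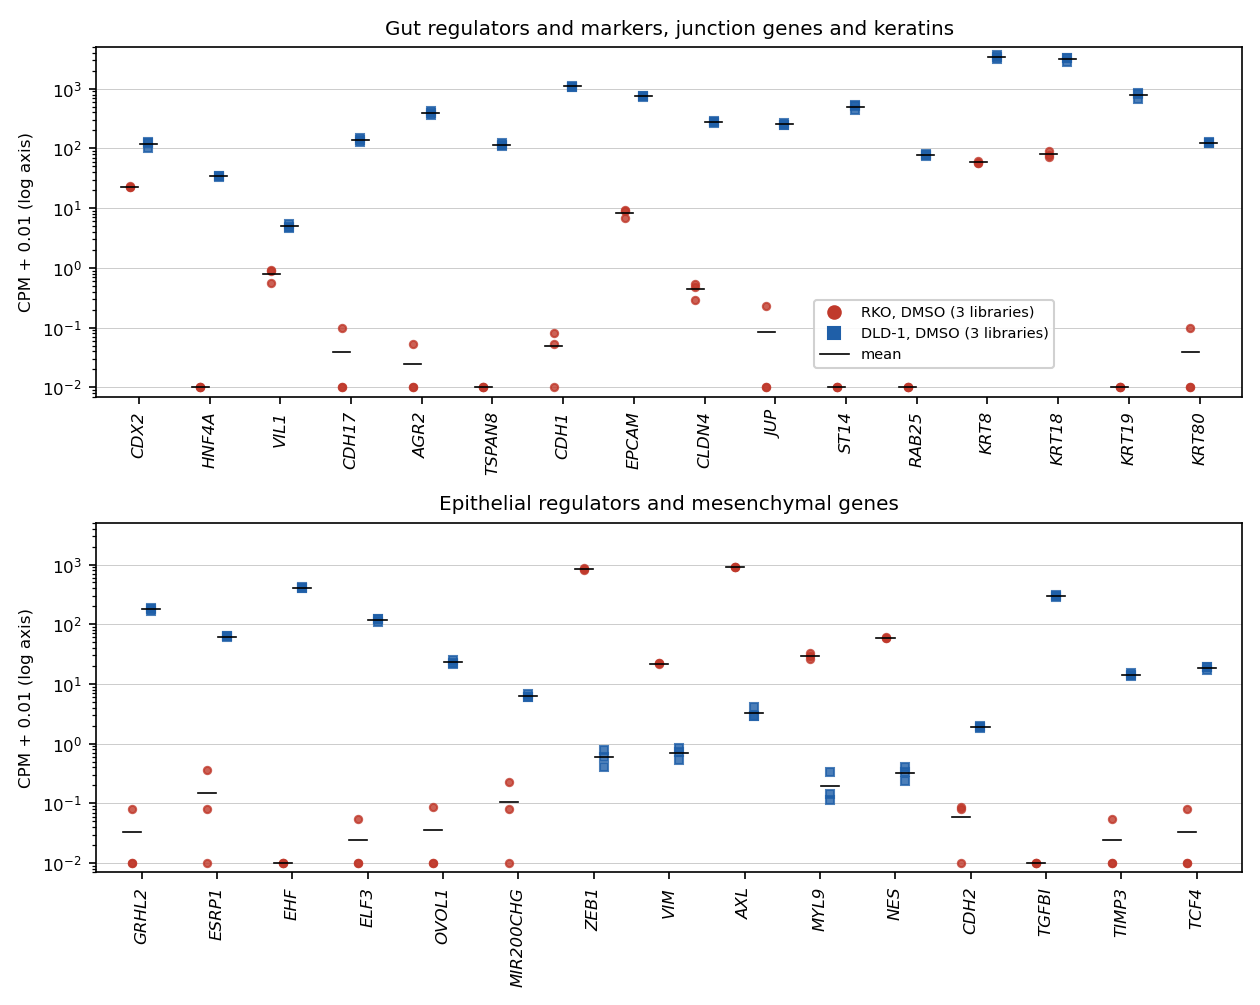
CPM plus 0.01 on a log axis for single genes, with 1 point per library (RKO red circles, DLD-1 blue squares, 3 libraries each) and a black bar at the mean. The upper panel shows gut regulators, junction genes and keratins, and the lower panel epithelial regulators and mesenchymal genes. CDH1, KRT19, ST14 and EHF lie at or near 0 in RKO and at 406 CPM or more in every DLD-1 library, while ZEB1 and AXL lie at 803 CPM or more in every RKO library.

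Gut regulators were mostly lower in RKO, with exceptions. Of 15 tested intestinal transcription factors, 11 (73.3%) were called higher in DLD-1 and 3 (20%) in RKO, with a median of -3.37. All tested genes with a single row had shares of 23.9% and 20.3%, so the RKO share was near that of all genes. CDX2, which specifies intestinal epithelium, was at 22.5, 22.4 and 23.03 CPM in RKO and 128, 124 and 104 CPM in DLD-1 (-2.38, SE 0.09, adjusted p = 1e-09). HNF4A, a regulator of enterocyte genes, had no count in RKO and was at 34.3, 33.8 and 34.7 CPM in DLD-1, while its paralog HNF4G was called higher in RKO (21.2 against 7.15 CPM). FOXA2 had no count in RKO, and SOX9, a crypt factor, averaged 2.54 CPM in RKO and 229 CPM in DLD-1. PROX1 and ONECUT2 were the other two factors called higher in RKO (1.79 and 1.76).

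Of 22 tested enterocyte and secretory markers, 16 (72.7%) were called higher in DLD-1 and 5 (22.7%) in RKO, with a median of -5.58 (-3.74 at the bounds). Here too the RKO share was near the 20.3% of all tested genes with a single row, and 23.9% of those were higher in DLD-1. CDH17, an intestinal cadherin, was at 0, 0 and 0.0881 CPM in RKO and 139.9, 131 and 149 CPM in DLD-1, and AGR2, of secretory cells, averaged 0.0147 and 394 CPM. TSPAN8, DPP4 and the trefoil genes TFF1, TFF2 and TFF3 had no count in RKO. VIL1, the brush border protein villin, was low in both lines (0.544, 0.917 and 0.881 CPM in RKO and 4.81, 5.47 and 4.66 CPM in DLD-1). The 5 genes called higher in RKO included MUC12 (11.8 against 0.107 CPM) and 2 genes of the brush border adhesion complex, USH1C (3.69 against 0.262 CPM) and CDHR2 (1.37 against 0.179 CPM). In 11 further markers, among them FABP1, SI, CEACAM5 and ALPI, counts were too low in both lines to test. LGALS4, KRT20 and MUC2 have several rows in the table and are not reported.

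Mesenchymal genes were called in both directions, more often higher in DLD-1. Of 33 tested, 10 (30.3%) were called higher in RKO and 17 (51.5%) in DLD-1, with a median of -1.41. The shares among all tested genes with a single row were 20.3% and 23.9%. AXL, a receptor kinase, was at 919, 896 and 911 CPM in RKO and 2.86, 4.09 and 2.88 CPM in DLD-1. VIM, the mesenchymal filament vimentin, was at 21.997, 22.1 and 21.3 CPM in RKO and 0.836, 0.528 and 0.712 CPM in DLD-1 (4.94, SE 0.18). MYL9, COL6A1 and the YAP target CCN1 were also higher in RKO. On the other side, TGFBI had no count in RKO and averaged 299 CPM in DLD-1, the basement membrane collagens COL4A1 and COL4A2 averaged 0.0641 and 0.0876 CPM in RKO against 17.9 and 26.1 CPM, and NT5E, or CD73, 12.04 against 372 CPM. CDH2, N-cadherin, was called higher in DLD-1 at a low level (0.0494 against 1.90 CPM), so neither of the classical cadherins CDH1 and CDH2 reached 0.1 CPM in any RKO library. COL1A1, COL3A1, CDH11 and PRRX1 were too low to test.

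Wnt targets were mostly higher in DLD-1, while the core components had a median log2 difference of 0.02. Of 26 tested targets and feedback genes, 16 (61.5%) were called higher in DLD-1 and 6 (23.1%) in RKO, with a median of -1.86. The RKO share was near the 20.3% of all tested genes with a single row, of which 23.9% were higher in DLD-1. AXIN2, a feedback inhibitor used as a readout of beta-catenin, was at 10.03, 10.6 and 12.2 CPM in RKO and 823, 806 and 725 CPM in DLD-1 (-6.14, SE 0.09, adjusted p = 1e-12). RNF43, a ligase that removes Wnt receptors, had 3 counts in RKO in all and was at 341, 318 and 339 CPM in DLD-1. The stem cell gene LGR5 was at 0, 0.141 and 0 CPM in the RKO libraries and averaged 51.4 CPM in DLD-1, and ASCL2 was at 0 CPM in RKO and averaged 80.8 CPM in DLD-1. NKD1, another feedback gene, was at 31.6, 41.6 and 37.04 CPM in RKO and 35.9, 33.1 and 30.4 CPM in DLD-1. The 2 groups overlapped for NKD1 and it was not called (0.15, SE 0.10, adjusted p = 0.21), although the adjusted p was 0.026 at 0.26 without RKO replicate 1.

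Of the targets higher in RKO, MYC was at 572, 578 and 613 CPM against 169, 153 and 154 CPM and CD44 at 202, 198 and 198 against 35.4, 29.98 and 35.4 CPM. Both are under many inputs besides Wnt. Of 20 tested core components, 5 (25%) were called higher in RKO and 2 (10%) in DLD-1, with a median of 0.02. The shares of all tested genes with a single row were 20.3% and 23.9%. Summed core components were at 1959 to 1977 CPM in RKO and 3043 to 3149 CPM in DLD-1. CTNNB1, beta-catenin itself, averaged 285 CPM in RKO and 685 CPM in DLD-1, and APC was not called (122 and 85.1 CPM). The secreted antagonists were scarce in both lines: 7 of 13 were too low to test, among them SFRP1, SFRP2, WIF1 and DKK1, and the sum of all 13 was 2.75 to 4.20 CPM in RKO and 9.48 to 10.7 CPM in DLD-1.

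The ligands of EGFR were mostly higher in DLD-1. Of 11 tested ERBB ligands and receptors, 10 were called higher in DLD-1 and 0 in RKO, with a median of -2.37. EREG, epiregulin, had no count in RKO and was at 1398, 1453 and 1778 CPM in DLD-1, at least 25586-fold apart. AREG, amphiregulin, was at 0.855, 0.635 and 0.925 CPM in RKO and 334, 322 and 347 CPM in DLD-1 (-8.66, SE 0.10), and TGFA averaged 5.26 and 174 CPM. The receptors differed less: EGFR averaged 77.3 CPM in RKO and 212 CPM in DLD-1, ERBB2 121 and 273 CPM and ERBB3 36.3 and 187 CPM.

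Output genes of the ERK cascade, which lies below BRAF, were called in both directions. Of 21 tested, 7 (33.3%) were called higher in RKO and 5 (23.8%) in DLD-1, with a median of 0.41. Among all tested genes with a single row the shares were 20.3% and 23.9%, so the DLD-1 share was near that of all genes. SPRY4, a feedback inhibitor, was at 1058, 1102 and 1010.0 CPM in RKO and 28.4, 27.4 and 29.8 CPM in DLD-1 (5.21, SE 0.06, adjusted p = 4.7e-13). FOSL1, an AP-1 factor, was at 468, 493 and 467 and 14.2, 10.8 and 15.4 CPM, and EGR1 averaged 373 and 21.8 CPM. DUSP6, the ERK phosphatase, went the other way at 171, 161 and 183 CPM in RKO and 517, 525 and 554 CPM in DLD-1, as did DUSP4, SPRY1 and CCND1. SPRY2, ETV4 and ETV5 were not called (-0.19, 0.41 and 0.67).

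Of the mismatch repair genes, MSH6 and MSH3 went opposite ways. Their products are partners in the complexes that recognise mismatches. MSH6 was at 197, 197 and 196 CPM in RKO and at 57.95, 56.8 and 58.5 CPM in DLD-1 (1.77, SE 0.05, adjusted p = 8.8e-11), so the higher transcript level was in RKO. MSH3 averaged 17.4 CPM in RKO and 69.6 CPM in DLD-1 and was called higher in DLD-1. PMS2, which acts after a mismatch is bound, averaged 28.05 and 38.8 CPM and missed the 2-fold bound (-0.47).

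The D-type cyclins differed in kind. CCND2 was at 253, 256 and 257 CPM in RKO and 0.627, 0.330 and 0.129 CPM in DLD-1, CCND1 averaged 270.1 CPM in RKO and 892 CPM in DLD-1, and CCND3 was not called (38.1 and 30.3 CPM). The inhibitor CDKN1A, or p21, was at 77.9, 78.2 and 84.1 CPM in RKO and 16.8, 16.9 and 17.03 CPM in DLD-1 (2.25, SE 0.06, adjusted p = 1.2e-10). The inhibitor CDKN2B was also higher in RKO (37.2 against 2.07 CPM) and CDKN1B in DLD-1 (17.9 against 85.7 CPM). Of 21 tested proliferation genes, 7 (33.3%) were called higher in DLD-1, 2 (9.52%) in RKO and 12 in neither, against 23.9% and 20.3% of all genes. TOP2A, CDK1 and KIF20A were among those called higher in DLD-1, while MKI67 averaged 1298.7 CPM in RKO and 377 CPM in DLD-1 and, with TYMS, was called higher in RKO. The replication helicase genes MCM2 to MCM7 were not called.

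HOX genes, which record position along the body axis, differed by cluster. Of 34 tested, 13 were called higher in RKO and 17 in DLD-1, with a median of -1.24. All 7 tested HOXC genes were called higher in RKO, and the sum of the HOXC cluster was 66.7 to 80.7 CPM in RKO and 4.91 to 5.63 CPM in DLD-1. HOXC8, for example, was at 25.8, 20.5 and 22.8 CPM in RKO and 0.125, 0.264 and 0.0971 CPM in DLD-1. The HOXA and HOXB clusters were on the other side, with 7 genes each higher in DLD-1 and 1 each in RKO (HOXA7 and HOXB2). The HOXB sum was 150.3 to 160.5 CPM in RKO and 1096 to 1115 CPM in DLD-1, and HOXA13, a hindgut HOX gene, averaged 11.1 and 218 CPM. The HOXD cluster was divided within itself: HOXD3, HOXD4, HOXD8 and HOXD9 were called higher in RKO, and HOXD10, HOXD11 and HOXD13 in DLD-1, the last 3 at no more than 2.49 CPM in any library.

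**Figure D3:**
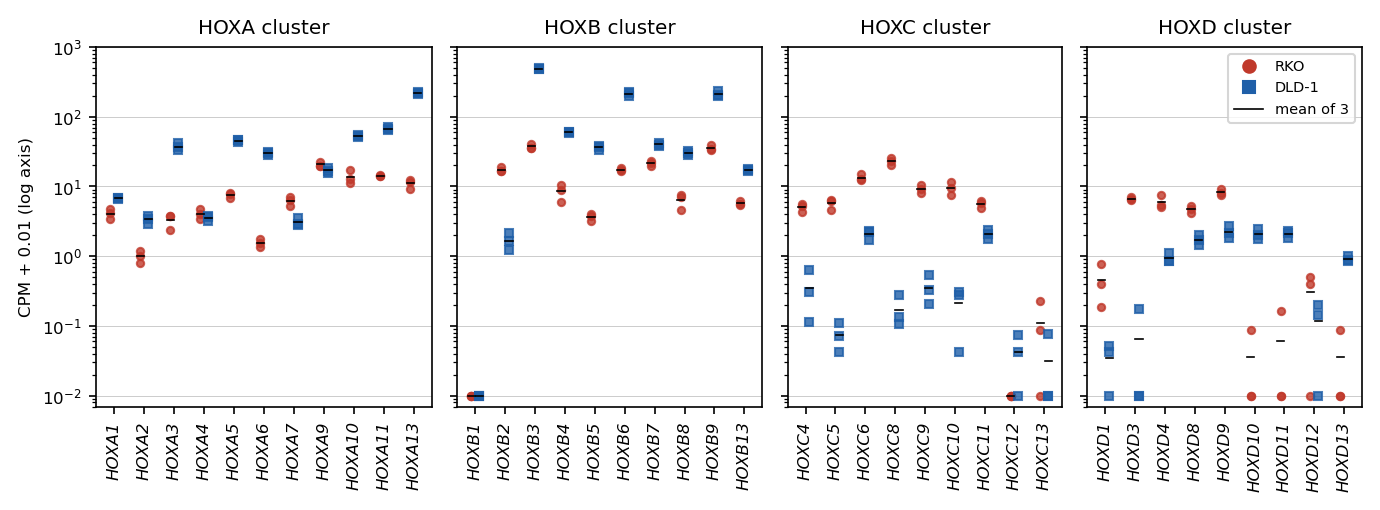
CPM plus 0.01 on a log axis for every HOX gene of the 4 clusters, with 1 point per library (RKO red circles, DLD-1 blue squares, 3 libraries each) and a bar at the mean of 3. The 7 tested HOXC genes lie higher in RKO, most HOXA and HOXB genes lie higher in DLD-1, and the HOXD genes change direction after HOXD9.

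Proteasome subunits, the targets of carfilzomib, and the chaperones named in the study title were read next in the untreated lines. Of 31 tested proteasome subunits, 7 (22.6%) were called higher in DLD-1 and 1 (3.23%) in RKO, against 23.9% and 20.3% of all tested genes with a single row, with a median log2 difference of -0.60. PSMB5, the main subunit bound by carfilzomib, averaged 65.9 CPM in RKO and 113 CPM in DLD-1 and missed the 2-fold bound (-0.77, adjusted p = 6.2e-07). PSMB1, PSMB2, PSMB4, PSMA1 and PSMA2 of the core particle were among those called higher in DLD-1. PSMD2, a scaffold subunit of the regulatory cap, was the exception at 702, 763 and 783 CPM in RKO and 193, 187 and 194 CPM in DLD-1 (1.97, SE 0.06). Of the immunoproteasome, PSMB8 and PSMB9 have several rows in the table and give no usable value, and PSMB10 was not called.

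Of 20 tested chaperones and cofactors, 4 (20%) were called in each direction, with a median of 0.14, and these shares were near those of all genes. HSPA8, the constitutive HSP70, was at 1074, 1253 and 1260.0 CPM in RKO and 2196, 2152 and 2157 CPM in DLD-1 (-0.86, adjusted p = 2.6e-07), short of 2-fold. HSPA5, or BiP, which works in the endoplasmic reticulum, stood at 1082, 1178 and 1150.0 CPM in RKO and 344, 301 and 412 CPM in DLD-1 and was called (1.69, SE 0.10). HSPH1 and HSPE1 were called higher in DLD-1. The heat-inducible HSPA6 averaged 0.145 CPM in RKO and 1.71 CPM in DLD-1, so that it was low in both untreated lines. BAG3 and HSPB1 were not called (0.46 and 0.41).

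Innate immune genes went in both directions. IFI16, a nuclear DNA sensor, was at 437, 460.3 and 501 CPM in RKO and had 2 counts in DLD-1 in all. CGAS, a cytosolic DNA sensor, averaged 37.2 CPM in RKO and 3.94 CPM in DLD-1, and BST2, or tetherin, was at 238, 228 and 230.5 CPM in RKO and 0.0627, 0.0330 and 0 CPM in DLD-1. Of 23 tested interferon-stimulated genes as a list, however, 13 (56.5%) were called higher in DLD-1 and 5 (21.7%) in RKO, with a median of -1.26. The RKO share was near the 20.3% of all tested genes with a single row, and the DLD-1 share was above their 23.9%. OAS1 averaged 0.131 CPM in RKO and 28.7 CPM in DLD-1 and IFIH1, an RNA sensor, 10.5 and 45.4 CPM. CD274, or PD-L1, was at 354, 355 and 356 CPM in RKO and 6.85, 7.35 and 7.02 CPM in DLD-1 and was chosen after its values were seen.

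TGF-beta and BMP genes were higher in DLD-1 at 14 of 27 tested members and higher in RKO at 3, with a median of -1.32. TGFBR2, the type II receptor, was at 23.8, 21.7 and 27.8 CPM in RKO and 143, 137 and 153 CPM in DLD-1. BMP4 was at 1.01, 0.494 and 1.01 and 662, 611 and 617 CPM, and the BMP targets ID1 and ID2 averaged 7.88 and 1.15 CPM in RKO and 159 and 260.1 CPM in DLD-1. SMAD7, the feedback inhibitor, followed (3.68 and 74.9 CPM). The ligand gene TGFB1 went the other way, averaging 201 CPM in RKO and 20.97 CPM in DLD-1.

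Matrix adhesion genes differed chain by chain. Of 29 tested integrins and laminins, 18 (62.1%) were called higher in DLD-1 and 6 (20.7%) in RKO, with a median of -1.88. Among all tested genes with a single row the shares were 23.9% and 20.3%, so the RKO share was near that of all genes. The hemidesmosome pair ITGA6 and ITGB4 averaged 43.2 and 1.09 CPM in RKO and 818 and 375 CPM in DLD-1. LAMA3, a chain of the epithelial laminins, was at 0 CPM in RKO and averaged 222 CPM in DLD-1, but LAMB3, a partner chain, was called higher in RKO (1601, 1554 and 1565 against 305, 272 and 283 CPM). ITGB1 and its fibronectin-binding partner ITGA5 were called higher in RKO at 2.43 and 1.83, as was LAMA1 (109 against 4.39 CPM).

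Xenobiotic genes, which set how a cell handles drugs, were called higher in DLD-1 at 26 of 35 tested members and higher in RKO at 4, with a median of -1.58. ABCB1, the efflux pump P-glycoprotein, had no count in RKO and was at 56.9, 52.4 and 55.2 CPM in DLD-1. Carfilzomib is a known substrate of ABCB1. ALDH3A1, AKR1C3 and UGT1A6 also had no count in RKO. The NRF2 targets NQO1 and TXNRD1 averaged 36.7 and 169 CPM in RKO and 509.7 and 743 CPM in DLD-1. GSTM1, a gene that is deleted in many genomes, averaged 28.9 CPM in RKO and 0.0685 CPM in DLD-1.

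Of 16 tested mucins and S100 proteins, 10 (62.5%) were called higher in RKO and 5 in DLD-1, with a median of 1.87. S100A2 was at 402, 381 and 456 CPM in RKO and 2.86, 2.14 and 4.47 CPM in DLD-1, and S100A6, S100A11, S100A13 and S100A16 were also called higher in RKO. S100P had no count in RKO, and S100A14 averaged 0.188 CPM there, against 96.9 and 212 CPM in DLD-1. These calcium-binding proteins thus went in both directions within 1 family.

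**Figure D4:**
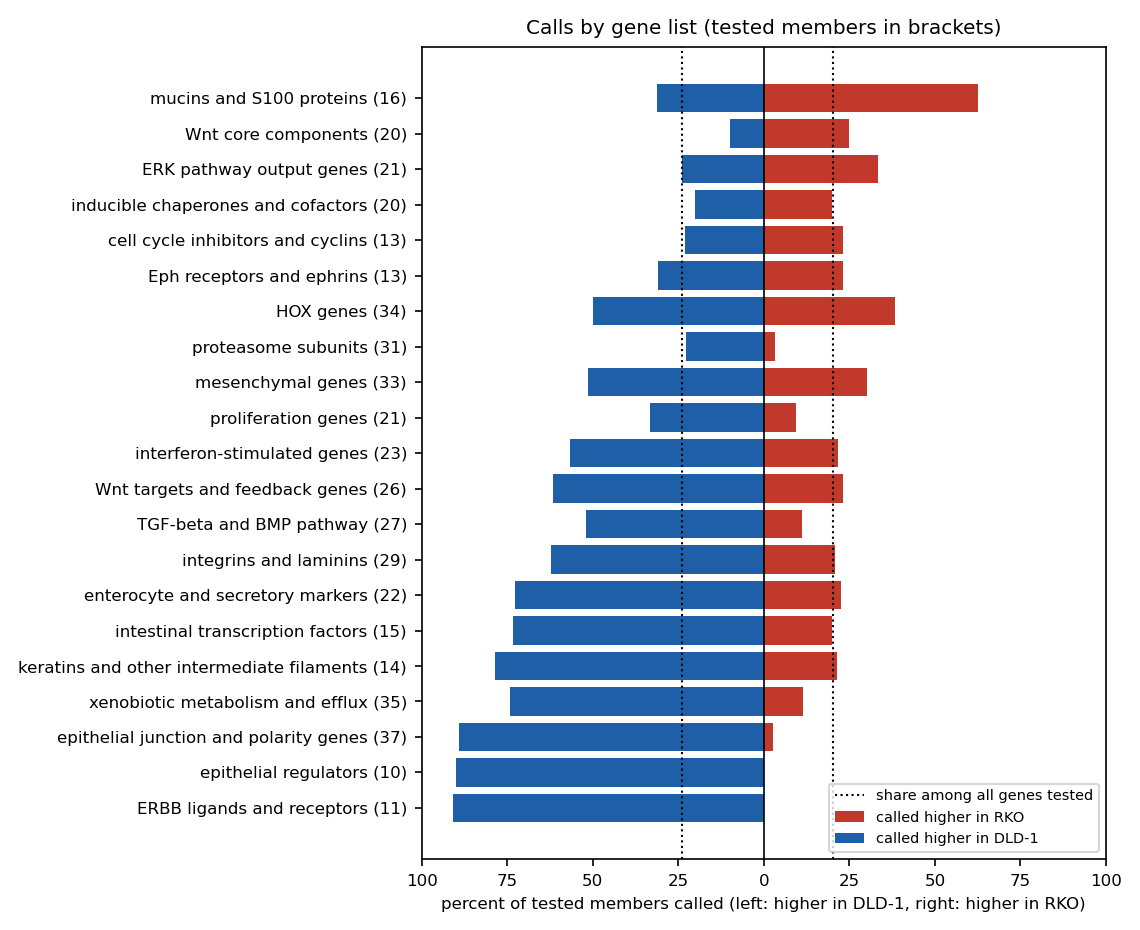
Percent of the tested members of each gene list that were called higher in DLD-1 (blue, to the left of 0) or in RKO (red, to the right), with the number tested in brackets. Dotted lines mark the shares among all tested genes with a single row, 23.9% and 20.3%. Epithelial regulators, junction genes and ERBB genes reach about 90% on the DLD-1 side (90, 89.2 and 90.9), and mucins and S100 proteins reach 62.5% on the RKO side.

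Some genes were present in one line and near absent in the other. With at least 1 CPM in all 3 libraries of a line and under 0.1 CPM in all 3 of the other, 215 rows were on in RKO only and 586 in DLD-1 only. With every library thinned to the lowest total of the 6, the counts were 217 and 569, so the split was of about the same size at equal depth. Of genes with a single row, 192 were on in RKO, with 72 lacking any count in DLD-1. On the other side 567 were on in DLD-1, with 420 lacking any count in RKO. The numbers lacking any count were not taken at equal depth, and the shallower RKO libraries make a missing count more likely there. Among the RKO genes was HGF, the ligand of the MET receptor, at 472, 491 and 485 CPM in RKO and without a count in DLD-1 (at least 17550.2-fold). Its receptor was present in both lines: MET averaged 171 CPM in RKO and 302 CPM in DLD-1. The hormone gene STC1 was at 1448, 1513 and 1478 CPM in RKO and 0.104, 0.0330 and 0.0324 CPM in DLD-1, and EVC, of the primary cilium, at 439, 433 and 414 CPM in RKO with 1 count in DLD-1.

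MAP1LC3C, an autophagy gene of the LC3 family, averaged 187 CPM in RKO and had no count in DLD-1. The same held for SEMA3D, BNC2, FIRRE and BCL2A1, at 117, 106, 49.9 and 46.3 CPM in RKO. RGS4, which damps G protein signalling, averaged 413 CPM in RKO and 0.0537 CPM in DLD-1. On the DLD-1 side, beside the epithelial genes above, ME1, a cytosolic source of NADPH, averaged 287 CPM and had no count in RKO. ANXA3, TINAGL1, OLR1 and PTPN13 likewise had no count in RKO and averaged 327, 318, 316 and 260.4 CPM in DLD-1.

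Markers of colon epithelium and of other cell types were read beside these results. Of 11 colon epithelium markers, 8 were tested and all 8 were called higher in DLD-1. The sum over single-row markers was 163.4 to 185.2 CPM in RKO and 8086 to 9027 CPM in DLD-1. Most of both sums came from KRT8 and KRT18, which averaged 58.9 and 79.9 CPM in RKO and 3399 and 3114 CPM in DLD-1. In RKO the markers detected in every library were KRT8, KRT18, CDX2, EPCAM and VIL1, and CDH1, CDH17 and GPA33 were at or near 0. Of the leukocyte markers, CD68 was at 822, 818 and 791 CPM in RKO and 2.57, 2.84 and 2.69 CPM in DLD-1, while CD3E and CD53 had no count in RKO and LAPTM5 averaged 0.0147 CPM. Summed plasma cell markers were at 2.11 to 3.10 CPM in RKO and 0 to 0.33 CPM in DLD-1, endothelial markers at 0.44 to 1.94 and 7.80 to 9.30 CPM, and fibroblast markers at 0.31 to 0.92 and 1.52 to 1.76 CPM.

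The line difference was read again in the 6 carfilzomib libraries of RKO and DLD-1, which are separate cultures. Of 16429 rows tested, 3566 (21.7%) were called higher in RKO and 3880 (23.6%) higher in DLD-1, 45.3% in all. Of the untreated calls that could be tested there, 3065 of 3396 (90.3%) on the RKO side and 3389 of 3816 (88.8%) on the DLD-1 side were called in the same direction, and 6 and 1 in the opposite one. The log2 difference in those libraries was 9.53 for ZEB1, -6.15 for EPCAM, -6.31 for AXIN2 and 5.26 for SPRY4, against 10.46, -6.47, -6.14 and 5.21 untreated. A test of the change between treatments over 12 libraries found 1044 of 17445 rows at an adjusted p under 0.05, of which 132 also changed by at least 2-fold.

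Set beside the other 6 lines under DMSO, some differences placed RKO apart and others DLD-1. The levels here are CPM scaled over all 24 DMSO libraries and differ slightly from those above. ZEB1 was highest in RKO (761 CPM), with H-929 next (92.4 CPM), and lowest in DLD-1 (0.556 CPM). HGF was also highest in RKO (442 CPM), ahead of RPMI and H-23 (21.8 and 21.6 CPM), whose ranges overlapped each other.

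For AXIN2, DLD-1 was the line apart, at 746 CPM against 27.5 CPM in CAPAN-2, the next in order, and 10.03 CPM in RKO. EREG was also highest in DLD-1 (1465 CPM), followed by CAPAN-2 and H-23 (131 and 123 CPM), whose ranges overlapped. CDH1 was highest in CAPAN-2 and DLD-1 (1204 and 1038 CPM) and near 0 in RKO and H-1299 (0.0350 and 0 CPM). IFI16 in RKO (427 CPM) lay between the myeloma lines H-929 and RPMI (942 and 315 CPM) and above the other solid tumour lines. CDX2 was highest in the pair of colon lines, 113 CPM in DLD-1 and 20.7 CPM in RKO, with CAPAN-2 next at 12.4 CPM. CDKN2A was near 0 in both colon lines (0.311 CPM in RKO and 0.0871 CPM in DLD-1), as in PANC-1 (0 CPM), and at 13.7 to 148 CPM in the other 5.

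**Figure D5:**
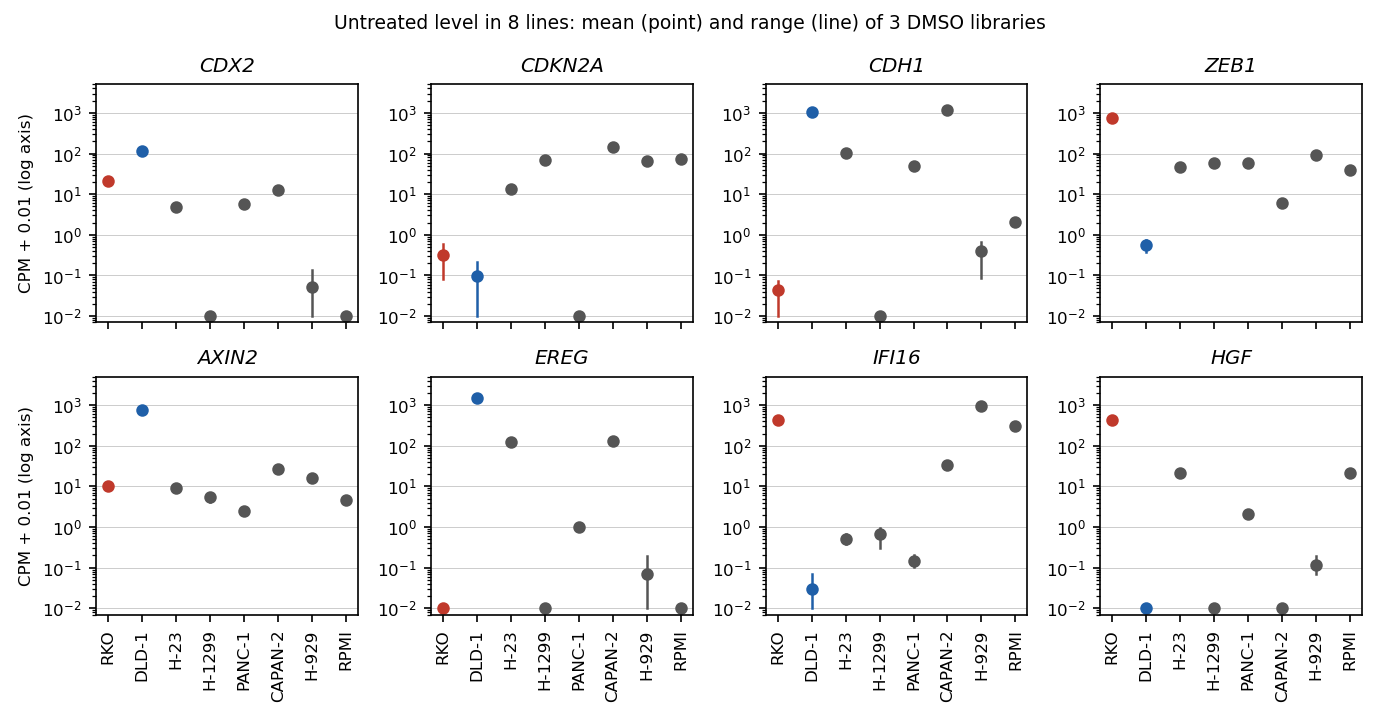
Mean CPM plus 0.01 on a log axis (points) with the range of 3 DMSO libraries (lines) for 8 genes in the 8 untreated lines, RKO in red and DLD-1 in blue. RKO lies apart at the top for ZEB1 and HGF, DLD-1 lies at the top for AXIN2, EREG and CDX2, and both lie near 0 for CDKN2A.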

How the data were processed

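The authors deposited 1 table of unnormalized counts, holding 33892 gene rows for 48 libraries. Per the labels' protocols, total RNA was made into stranded total RNA libraries. Per the submitters' processing notes, the build was hg38 and the tools included bcl2fastq 2.19, FastQC, Trimmomatic, HISAT2 and DESeq2. The counting program, the annotation and the use of strand are not given in the sources used here, so antisense and overlapping genes are uncertain. Of the rows, 4803 share an Ensembl identifier with another row, and some genes used by every cell, such as HSF1, have at most 1 count there in any of the 6 libraries. Such genes are left out of the lists.

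Counts of the 6 untreated libraries (12.65 to 48.86 M) were normalized by TMM, filtered with filterByExpr and tested with the quasi-likelihood F test in edgeR 4.0.16 (R 4.3.3), adjusting p over all 16770 rows. The procedure was run on simulated data in which few genes differed and the directions were balanced. In these lines 44.9% of the tested rows were called, so that run does not cover differences of this extent. A gene was called at an adjusted p under 0.05 and at least 2-fold. The replicate numbers did not pair the libraries. Intervals and the floor of 3 counts over a line's 3 libraries cover counting error only, and no molecular identifiers are known. Gene positions came from GENCODE 29 (87.6% of rows matched) and promoters from RefSeq.

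The lists and the rule for named genes were chosen with earlier results of these data known. The rule takes fixed genes of gut, epithelial, repair and stress biology, up to 3 genes per direction and list, the 10 largest differences per direction with at least 20 CPM, and the 5 highest genes on in 1 line only. XIST and Y-linked genes were skipped, and some further genes are not reported here. Further list members, and genes outside the lists such as MIR200CHG, CD274, MET and the clusters in the closing section, were named after their values were seen. Alternatives were DESeq2 1.42.0, other scalings, filters and call rules, other sets of libraries, the replicate number as a block, thinning and leaving out each library.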

Additional observations from a re-analysis of the deposited data

Results flagged for a closer look

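For 31 of 240 named genes that could be tested, the difference between the lines itself differed between carfilzomib and DMSO, by the interaction test of edgeR over 12 libraries at an adjusted p under 0.05. All 31 kept their direction, and 5 changed by at least 2-fold. Over all rows the same test passed 1044 of 17445, of which 132 changed by at least 2-fold. The 240 include genes named after their values were seen, so their count is not a rate for a defined set. Values are the change in the log2 difference (RKO minus DLD-1) from DMSO to carfilzomib.

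Of the 5, CD68, the lysosomal marker, changed by -1.64 (adjusted p = 6.2e-07), from 8.24 untreated to 6.60 with carfilzomib. CDKN2B changed by -1.19 (adjusted p = 0.00046), from 4.18 to 3.00. SPHK1, a lipid kinase, changed by -1.04 (adjusted p = 8e-04), from 6.35 to 5.31. RNF43 changed by 2.97 (adjusted p = 0.046), from -12.32 to -9.34, and DACT1, a Wnt modulator, by 5.67 (adjusted p = 0.029), from -9.91 to -4.11. RNF43 had 3 counts and DACT1 0 counts in the untreated RKO libraries, so their fitted differences depend on few reads.

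The named proteasome subunits that passed the test all changed to the DLD-1 side: PSMD2 by -0.82 (adjusted p = 1.6e-05), PSMB2 by -0.71, PSMA2 by -0.65, PSMB4 by -0.56, PSMA1 by -0.53, PSMB1 by -0.49 and PSMB5 by -0.39. HSPA8 changed by -0.73 (adjusted p = 0.00012), from -0.86 to -1.59. ZEB1 changed by -0.93 (adjusted p = 0.02), FOSL1 by -0.70, CD44 by -0.58, S100A16 by -0.43, LAMB3 by -0.43, KRT8 by -0.32, TOP2A by -0.27 and CCN1 by -0.21. GSTA4, a glutathione transferase, changed by -0.95 and EFNA3, an ephrin, by -0.52. Changes to the RKO side were 0.89 for CDS1, 0.88 for GDF15, 0.78 for LAMA1, 0.57 for ERBB3, 0.41 for CCNG1, 0.39 for MDM2, and 0.33 each for NQO1 and MAPK13.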

How the results depend on the processing

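With an adjusted p alone, 6162 rows were higher in RKO and 7018 in DLD-1. Genes on in 1 line only numbered 107 in RKO and 290 in DLD-1 at a minimum of 5 CPM, and 85 in RKO when no count was allowed in DLD-1. Under the other alternatives the counts of calls stayed within 1.5 times those reported. Without each library in turn they were 3580 to 3683 (RKO) and 3952 to 4248 (DLD-1). DESeq2 gave 3782 and 4397 and shared 7317 of the 7527 calls, no filter 4058 and 4940, and thinning to the lowest total 3263 and 3423. Library totals without a composition factor moved the share of calls on the RKO side from 47.1% to 48.6%. Same-numbered libraries did not deviate together (r of 0.02, -0.04 and 0.02), and the replicate block gave 3497 and 3945 calls untreated and 3522 and 3865 with carfilzomib, with 6440 in place of 6454 untreated calls made again. Each of 173 named genes was refitted under those of 17 alternatives where it could be tested. Of these genes, 172 kept their direction and their side of the adjusted p threshold. Whether they also kept their side of the 2-fold bound was not compared, so a call near that bound could change. Many of the named genes were chosen for large differences in these same libraries, so this stability is not independent support. NKD1 was the exception (0.26, adjusted p = 0.026, without RKO replicate 1). Of the counts per list and direction, 46 of 1026 moved by more than 1.5 times, most of them with an adjusted p alone. The 3 RKO libraries are the shallower ones, which limits how low a level can be read there.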

Other observations

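Some clusters of neighbouring genes lay mostly on one side. The protocadherin beta genes, clustered adhesion genes on chromosome 5, summed to 166.2 to 179.9 CPM in RKO and 0.56 to 1.11 CPM in DLD-1, and all 13 tested of 16 were called higher in RKO, with PCDHB13 at 47.3, 46.8 and 44.3 CPM against 0.188, 0.0660 and 0.162 CPM. Protocadherin gamma genes summed to 141.3 to 152.9 CPM and 3.14 to 4.39 CPM, with the limit that their transcripts share exons. The kallikrein genes, secreted proteases on chromosome 19, went the other way at 0.62 to 0.99 CPM in RKO and 128.7 to 153.9 CPM in DLD-1, with 7 of 8 tested called higher in DLD-1 and 1, KLK14, in RKO (0.760 against 0.319 CPM). KLK6 was at 86.8, 76.3 and 90.8 CPM in DLD-1 and had no count in RKO. The trefoil genes TFF1, TFF2 and TFF3 and the genes around them on chromosome 21 formed a run of 6 neighbours higher in DLD-1. These runs were picked after the values were seen.

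Over tested protein-coding genes with a single row, the median log2 difference per chromosome ranged from -0.51 (chromosome 2, 913 genes) to 0.37 (chromosome 9, 565 genes). On chromosome 9, 32.7% of these genes were called higher in RKO and 18.8% in DLD-1, and on chromosome 2 the shares were 11.2% and 31.9%. Among all 13071 tested protein-coding genes with a single row they were 17.8% and 24.3%. Copy number was not measured here, and its part in these medians was not tested. Of 28 cancer-testis genes, 24 were too low to test in both lines.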
